A study of Mus musculus with 28 samples.

Results

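The major urinary protein (Mup) genes are a family of 20 genes among the 20416 genes measured here in mouse liver. They were taken as every gene whose symbol is Mup followed by a number, and all 20 lie within 2.19 megabases of chromosome 4 (59956806 to 62150841, mm10). Polyadenylated RNA from livers of male C57BL/6 mice was sequenced in 2 models of non-alcoholic steatohepatitis (NASH). In the diet study, 4 livers came from mice fed a methionine- and choline-deficient diet (MCD) and 4 from mice on a matched low-fat control diet (CD). The sample titles give 4 weeks on the diet and another label gives 5 weeks. In the other study, STAM mice had received streptozotocin, a toxin of insulin-producing cells, at postnatal day 2 and a high-fat diet (HFD) from week 4 onward. At each age, 4 and 10 weeks, 5 STAM livers were set against 5 livers of mice on a control diet. The labels do not say how long the 4-week STAM mice had eaten the high-fat diet, nor what injection their controls received.

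Major urinary proteins are small secreted lipocalins, barrel-shaped carriers of hydrophobic molecules. The liver releases them into blood, the kidney passes them into urine, and there they bind volatile pheromones and act as scent signals themselves. In mice, male liver makes far more of them than female liver after puberty, under the male pattern of pulsed growth hormone acting through its receptor and the transcription factor STAT5B. Thyroid hormone and glucocorticoids also act on their transcription.

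The members fall into a near-identical group and 6 others, and the sequences are shown because they set what the read counts can resolve. Among their coding sequences, taken from GENCODE M21, 14 members (Mup1, Mup2, Mup7 to Mup17 and Mup19) formed one group with identities of 98.3 to 99.8%. The other 6 members (Mup3, Mup4, Mup5, Mup6, Mup20 and Mup21) were at most 91.4% identical to any member of that group. Of all 50-base windows in its coding sequence, Mup7 shared 89.9% with at least 1 other member, and Mup9 shared 100%. Mup20 shared 4.63% and Mup3 shared 24.3%, whose closest relative was Mup21, at 94.8% identity. The following 90 bases start at the codon aligned to base 61 of the Mup7 coding sequence, and capitals mark bases that differ from Mup7.
Mup7: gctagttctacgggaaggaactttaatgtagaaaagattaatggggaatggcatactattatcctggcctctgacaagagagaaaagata
Mup9: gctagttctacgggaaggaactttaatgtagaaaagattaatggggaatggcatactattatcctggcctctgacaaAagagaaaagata
Mup14: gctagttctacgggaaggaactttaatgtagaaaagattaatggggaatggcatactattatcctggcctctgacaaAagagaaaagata
Mup20: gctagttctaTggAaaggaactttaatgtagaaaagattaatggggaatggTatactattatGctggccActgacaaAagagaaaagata
Mup3: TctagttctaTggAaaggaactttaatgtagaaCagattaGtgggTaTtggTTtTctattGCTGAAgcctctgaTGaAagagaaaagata
Mup6: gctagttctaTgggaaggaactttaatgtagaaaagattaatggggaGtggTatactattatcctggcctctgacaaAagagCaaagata
Mup9, Mup12 and Mup14 were identical to each other in this stretch, with 1 base different from Mup7, while Mup20 had 6 differences and Mup3 had 19. The sources used here do not give how the authors assigned reads that match several members. Values of single genes among the 14 are therefore uncertain, and the sum over the 14 is given beside them, since a split of reads within the group does not change it. Any reads left out because they match several members would be missing from that sum and from the shares.

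The deposited tables also give each gene a length in bases. It was under 100 bases for 6 members (1 base for Mup16 and for Mup19, 2 for Mup15, 7 for Mup17, 18 for Mup2 and 25 for Mup11) and between 413 and 986 bases for the other 14. Mup2 had 0 reads in 27 of the 28 libraries and 1 read in a 10-week STAM library. Levels are compared between genes only for the 14 members counted over at least 400 bases, per kilobase of that length.

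The values are log2 CPM, the log2 of a gene's reads scaled to the size of its library, with whole-read counts recovered from them. Library depth was 16.2 to 25.9 M reads. A gene was tested where its mean log2 CPM was above the 25th percentile of all genes of its table, which left 15312 genes per table and 19, 18 and 19 of the 20 members in the diet, 4-week and 10-week tables. Calls are limma adjusted p-values below 0.05 over all genes tested. The labels do not say that the libraries of a group are separate mice, so the p-values measure the spread between libraries. The 3 tables were scaled separately by the authors, and levels set across them carry no test.

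The Mup family was far lower in MCD livers. The summed CPM of all 20 members was 932, 592, 974 and 579 in the 4 MCD livers, against 12549, 13322, 15248 and 22730 in the 4 CD livers. The groups did not overlap, and the mean was 769 ± 213 CPM in MCD and 15962 ± 4652 CPM in CD (SD, n = 4 each). On the log2 scale the difference of the means was -4.38, a 20.8-fold lower sum in MCD. Members took 0.0886% of all reads in MCD livers and 1.37% in CD livers on average. Beside this, hepatocyte markers as a list shifted much less, with 5 of 8 lower and none higher and a median log2 fold change of -0.63 (all genes tested, 0.07). Their summed level was 78990 to 106600 CPM in MCD and 106000 to 126200 CPM in CD, ranges that overlapped slightly. In bulk liver, fewer hepatocytes and less RNA per hepatocyte cannot be told apart. Recruited macrophage markers summed to 136.5 to 242 CPM in MCD and 29.1 to 48.6 CPM in CD, with 4 of 5 higher. Bile duct cell markers summed to 112 to 194 CPM in MCD and 75.0 to 97.2 CPM in CD livers, with 4 of 5 higher. Stellate cell and fibroblast markers summed to 460 to 625 CPM in MCD and 314 to 340 CPM in CD livers, with 5 of 6 higher. Endothelial cell markers had 2 of 5 lower, Kupffer cell markers 1 of 4 higher, and lymphocyte markers 0 of 6 called. Among all genes tested, 20.1% were called lower and 22.6% higher. The part of cell make-up in the Mup result was not tested.

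**Figure D1:**
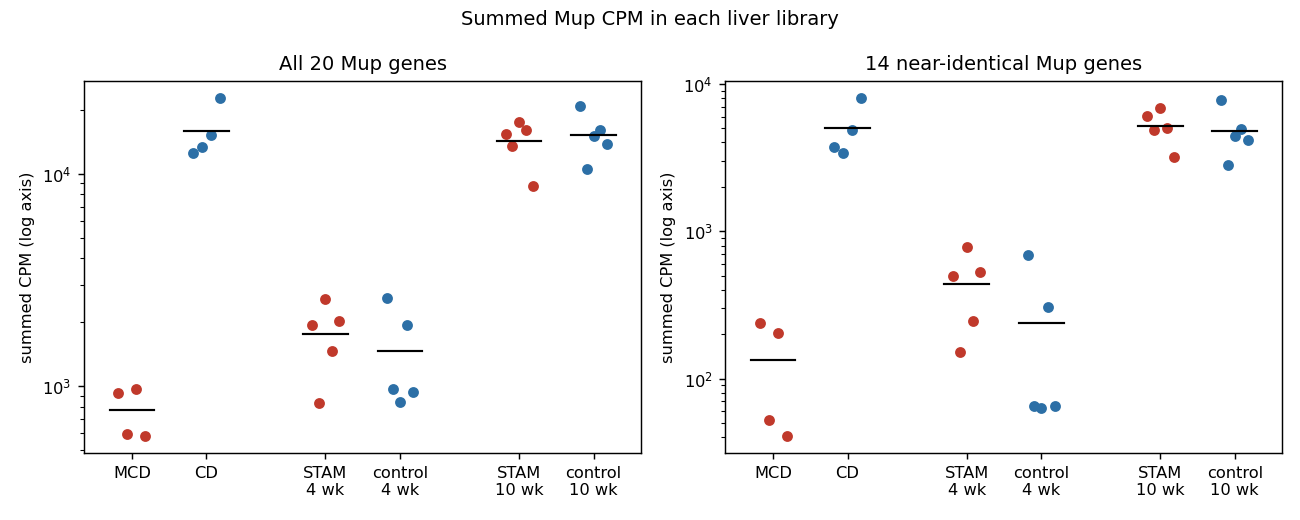
Summed CPM on a log axis, 1 point per library, for all 20 Mup genes (left) and for the 14 near-identical ones (right). Red points are MCD and STAM livers, blue points CD and control livers, and black lines are group means. The 4 MCD livers lie below all 4 CD livers in both panels, while STAM and control livers overlap at both ages.

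Of the 19 members tested, 18 fell in MCD livers and none rose, against 20.1% of all genes tested called lower and 42.7% called in either direction in this comparison. Mup4, Mup5 and Mup17 averaged -5.66, -5.92 and -5.92 log2 CPM in MCD livers, below the filter cutoff of -5.63. They passed the filter only through their CD level, so their direction was set in advance and adds no support. The median log2 fold change of the members was -5.70, against 0.07 for all genes tested. In the same 18 members the MCD and CD libraries did not overlap, which held for 19.2% of all genes tested in the lower direction and 20.9% in the higher one. The exception was Mup6, a low-level member, with 30 reads in all MCD libraries and 62 in all CD libraries (log2 fold change -1.69, SE 0.66, limma adjusted p = 0.0546). It was called lower with a prior of 2 reads (-1.37, adjusted p = 0.0485), with quantile normalization (-2.48, adjusted p = 0.0147), without CD replicate 1 (-2.12, adjusted p = 0.0229) and without MCD replicate 2 (-2.16, adjusted p = 0.0244).

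Mup7 (NM_001134675, chromosome 4, 60066469 to 60070475, minus strand), a member of the near-identical group, lost most. Its values were 1.80, 0.24, 1.37 and 0.60 log2 CPM in MCD livers, against 10.95, 10.29, 11.32 and 12.10 log2 CPM in CD livers. The log2 fold change was -10.17 (SE 0.47, 95% CI -11.28 to -9.05, limma adjusted p = 3.92e-06), from 223 reads in MCD and 175655 in CD. All 4 MCD livers were far below the lowest CD liver. The sum over the near-identical members was 133.6 ± 101.6 CPM in MCD and 4999.6 ± 2111.5 CPM in CD livers (SD, n = 4 each). Its log2 difference was -5.55, and the groups did not overlap.

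Mup14 (NM_001199999, 61300037 to 61303998), also of the near-identical group, followed. It had 0.63, -0.70, -0.08 and -0.51 log2 CPM in MCD livers, against 7.04, 7.60, 8.43 and 8.82 log2 CPM in CD livers. Its log2 fold change was -8.14 (SE 0.43, limma adjusted p = 2.71e-06).

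Mup12 (NM_001199995, 60737381 to 60741281) had 1.09, -0.80, 0.65 and -1.62 log2 CPM in MCD livers, against 5.99, 6.53, 6.80 and 7.65 log2 CPM in CD livers, a log2 fold change of -6.91 (SE 0.65, limma adjusted p = 0.00013). Mup9 (NM_001281979, 60418046 to 60421952) had 0.10, -1.98, -0.56 and -1.36 log2 CPM in MCD livers, against 4.36, 4.73, 4.82 and 6.51 log2 CPM in CD livers (log2 fold change -6.05, SE 0.56, limma adjusted p = 4.63e-05). In both genes MCD libraries 1 and 3 were the higher pair, as they were for Mup10 and Mup13, and CD library 4 was the highest of its group.

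Mup3 (NM_001039544, 62083476 to 62087312), the member with the most reads in control livers, fell with the least scatter. It had 7.33, 6.61, 7.18 and 6.72 log2 CPM in MCD livers, against 12.92, 13.10, 12.90 and 13.48 log2 CPM in CD livers. The log2 fold change was -6.14 (SE 0.18, 95% CI -6.53 to -5.75, limma adjusted p = 6.33e-10), with 13106 reads in MCD and 631339 in CD.

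Mup20 (NM_001012323, 62050235 to 62054117), known as darcin, the male urinary pheromone that attracts females, kept far more of its level. It had 9.02, 8.72, 9.24 and 8.69 log2 CPM in MCD livers, against 9.62, 9.91, 11.14 and 11.45 log2 CPM in CD livers. The groups did not overlap, yet the gap between the highest MCD and the lowest CD liver was small. The log2 fold change was -1.61 (SE 0.41, 95% CI -2.56 to -0.67, limma adjusted p = 0.0139). The call was lost with quantile normalization (-0.92, adjusted p = 0.0721) and without MCD replicate 4 (-1.54, adjusted p = 0.0549).

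Among the other members that fell, Mup10 and Mup13 kept the most reads, at 42.9 and 79.2 CPM on average in MCD livers, against 836 and 923 CPM in CD livers (log2 fold changes -4.69 and -3.91). Mup21, the closest relative of Mup3, had 19.2 CPM in MCD and 372 CPM in CD (log2 fold change -4.19, SE 0.28). Mup1, Mup8, Mup11, Mup15, Mup16 and Mup19 had log2 fold changes between -6.44 and -3.79. Of these, Mup15, Mup16 and Mup19 rest on 8, 5 and 6 reads over all MCD livers, against 158, 323 and 95 over all CD livers. Every Mup19 read in MCD came from replicate 1. Mup4, Mup5 and Mup17 were down to 3, 1 and 1 reads over all MCD livers, against 119, 99 and 48 reads over all CD livers. As ratios of CD over MCD, scaled for depth, these were 57.5-fold (95% counting interval 19.2 to 283), 144-fold (25.2 to 5724) and 69.6-fold (11.9 to 2805). Intervals from reads cover counting error only.

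**Figure D2:**
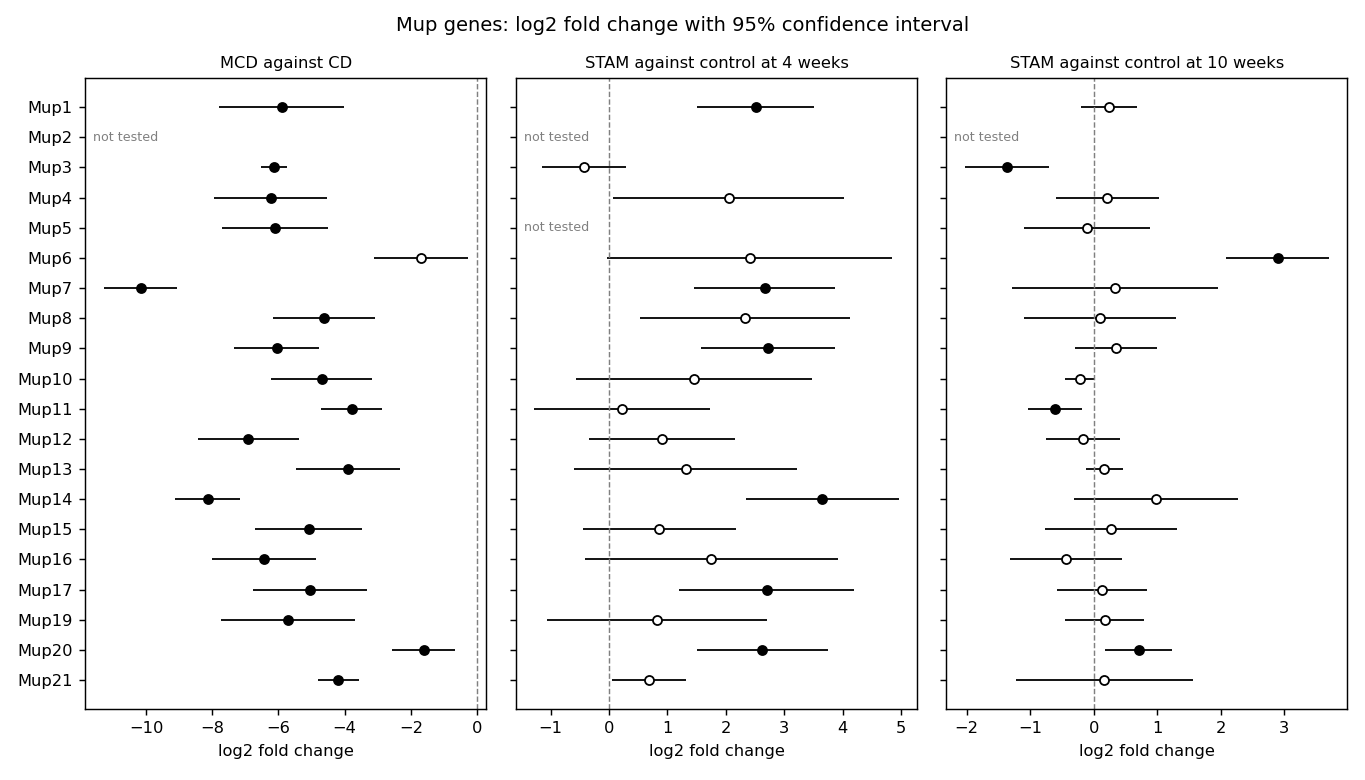
Log2 fold change of each Mup gene (MCD over CD, or STAM over control) with its 95% confidence interval from limma, 1 panel per comparison, each with its own horizontal axis. Filled points have an adjusted p below 0.05 over all genes tested, and open points do not: 18 of 19 are filled in the diet table, 6 of 18 at 4 weeks and 4 of 19 at 10 weeks.

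In 4-week STAM livers a subset of the family rose while its dominant member did not. Of the 18 members tested, 6 rose (Mup1, Mup7, Mup9, Mup14, Mup17 and Mup20) and none fell, against 6.52% of all genes tested called higher, 3.27% called lower and 9.8% called in either direction. The median log2 fold change over the 18 was 1.90, against 0.01 for all genes tested. In 5 of the 6, all except Mup17, the STAM and control libraries did not overlap, which held for 6.38% of all genes tested in the higher direction. Mup4, Mup17 and Mup19 averaged -6.25, -5.76 and -5.74 log2 CPM in control livers, below the filter cutoff of -5.56. They passed the filter only through STAM livers, so their direction was set in advance and adds no support to the count or the median.

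Mup20 had 9.005, 7.93, 9.42, 8.80 and 9.33 log2 CPM in STAM livers, against 7.64, 6.64, 5.00, 6.25 and 5.82 log2 CPM in control livers. The lowest STAM liver was above the highest control liver, and the log2 fold change was 2.63 (SE 0.49, 95% CI 1.51 to 3.74, limma adjusted p = 0.0117). This gene accounts for most of the added reads, with 52658 in the STAM libraries and 7876 in the control libraries.

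The other risers started from very low levels. Mup14 had 3.74, 1.35, 4.16, 2.21 and 3.96 log2 CPM in STAM livers, against 0.06, -0.72, -0.63, 0.18 and -1.74 log2 CPM in control livers (log2 fold change 3.65, SE 0.59, limma adjusted p = 0.00388). Mup7 had 4.10, 2.47, 5.07, 3.47 and 4.89 log2 CPM in STAM livers, against 2.12, 1.64, 0.28, 1.69 and 0.97 log2 CPM in control livers (2.66, SE 0.54, adjusted p = 0.0143). Mup9 had 3.004, 0.69, 4.06, 2.15 and 2.95 log2 CPM in STAM livers, against 0.06, -0.46, -0.51, 0.46 and -0.30 log2 CPM in control livers (2.72, SE 0.52, adjusted p = 0.00857). In each of the 3 genes, STAM replicate 2 was the lowest STAM liver and replicate 3 the highest.

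Mup1 averaged 28.4 CPM in STAM livers and 4.57 CPM in control livers (log2 fold change 2.51, SE 0.45, limma adjusted p = 0.00799). Mup17 rests on 12 reads in STAM and 1 read in control, a ratio of 10.3 with a 95% counting interval of 1.52 to 438, and its call was lost in 6 of 10 fits that left out 1 library, with adjusted p = 0.0545 without control replicate 4, 0.0563 without control replicate 5, and 0.0624, 0.0691, 0.0549 and 0.0672 without STAM replicates 1, 3, 4 and 5. The voom fit, which weights values by read depth, kept Mup1, Mup17 and Mup20. It did not call Mup7, Mup9 and Mup14 (adjusted p = 0.0649, 0.098 and 0.0794), with log2 fold changes of 2.68, 2.71 and 3.63.

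Mup3 did not pass the test at 4 weeks. It had 9.84, 8.76, 10.10, 9.58 and 9.73 log2 CPM in STAM livers, against 10.74, 9.64, 9.53, 10.60 and 9.66 log2 CPM in control livers, so the groups overlapped (log2 fold change -0.43, SE 0.32, limma adjusted p = 0.473). The interval of -1.15 to 0.29 leaves out a rise of the size seen for Mup20. Mup12 had 3.46, 1.96, 4.21, 2.79 and 3.57 log2 CPM in STAM livers, against 3.24, 3.42, 1.17, 2.20 and 1.46 log2 CPM in control livers, again overlapping (0.90, SE 0.56, adjusted p = 0.374).

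Control replicates 1 and 4 carried much more Mup10 and Mup13 than the other 3 controls. Mup13 had 8.20, 6.48, 8.71, 7.06 and 8.14 log2 CPM in STAM livers, against 8.82, 5.06, 5.22, 7.64 and 5.28 log2 CPM in control livers. Mup10 showed the same split, with 7.71 and 6.41 log2 CPM in those 2 control livers and 3.67 to 4.03 log2 CPM in the other 3. Neither gene passed the test (log2 fold changes 1.31 and 1.45, SE 0.84 and 0.89). The same 2 control livers also had the highest Mup3 of their group.

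The remaining members tested at 4 weeks had few reads and did not pass. Over all 5 libraries, Mup8 had 289 reads in STAM and 47 in control livers, Mup6 had 29 in STAM and 5 in control livers, and Mup4 had 8 in STAM and 0 in control livers. Without STAM replicate 2, Mup8 (log2 fold change 2.93, limma adjusted p = 0.0228) and Mup6 (3.37, adjusted p = 0.0401) were called higher. Mup11, Mup15, Mup16, Mup19 and Mup21 had log2 fold changes between 0.22 and 1.75.

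The sum over the family was 1935, 833, 2570, 1459 and 2025 CPM in 4-week STAM livers, against 2599, 965, 837, 1940 and 934 CPM in 4-week control livers, so the groups overlapped. The mean was 1764 ± 653 CPM in STAM and 1455 ± 781 CPM in control livers (SD, n = 5 each), a log2 difference of 0.34. The sum over the 14 near-identical members was 497, 152, 781, 245 and 527 CPM in STAM livers, against 693, 65.1, 62.9, 305 and 65.3 CPM in control livers. Each of the 5 STAM livers was above 3 control livers, but control replicates 1 and 4 fell inside the STAM range. At this age 3.27% of all genes tested were called lower and 6.52% higher. Beside that, 2 of 8 hepatocyte markers fell, with sums of 117900 to 131900 CPM in STAM and 146200 to 162600 CPM in control livers. Endothelial cell markers had 2 of 5 lower, while 0 of 6 stellate cell and fibroblast markers and 0 of 6 lymphocyte markers were called. All 5 recruited macrophage markers rose, with sums of 72.9 to 104 CPM in STAM and 45.3 to 65.4 CPM in control livers. Bile duct cell markers, 3 of 5 higher, summed to 104 to 138 CPM in STAM and 35.9 to 71.9 CPM in control livers, and 3 of 4 Kupffer cell markers rose, with sums of 372 to 546 CPM in STAM and 267 to 378 CPM in control livers. The part of these in the Mup values was not tested.

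**Figure D3:**
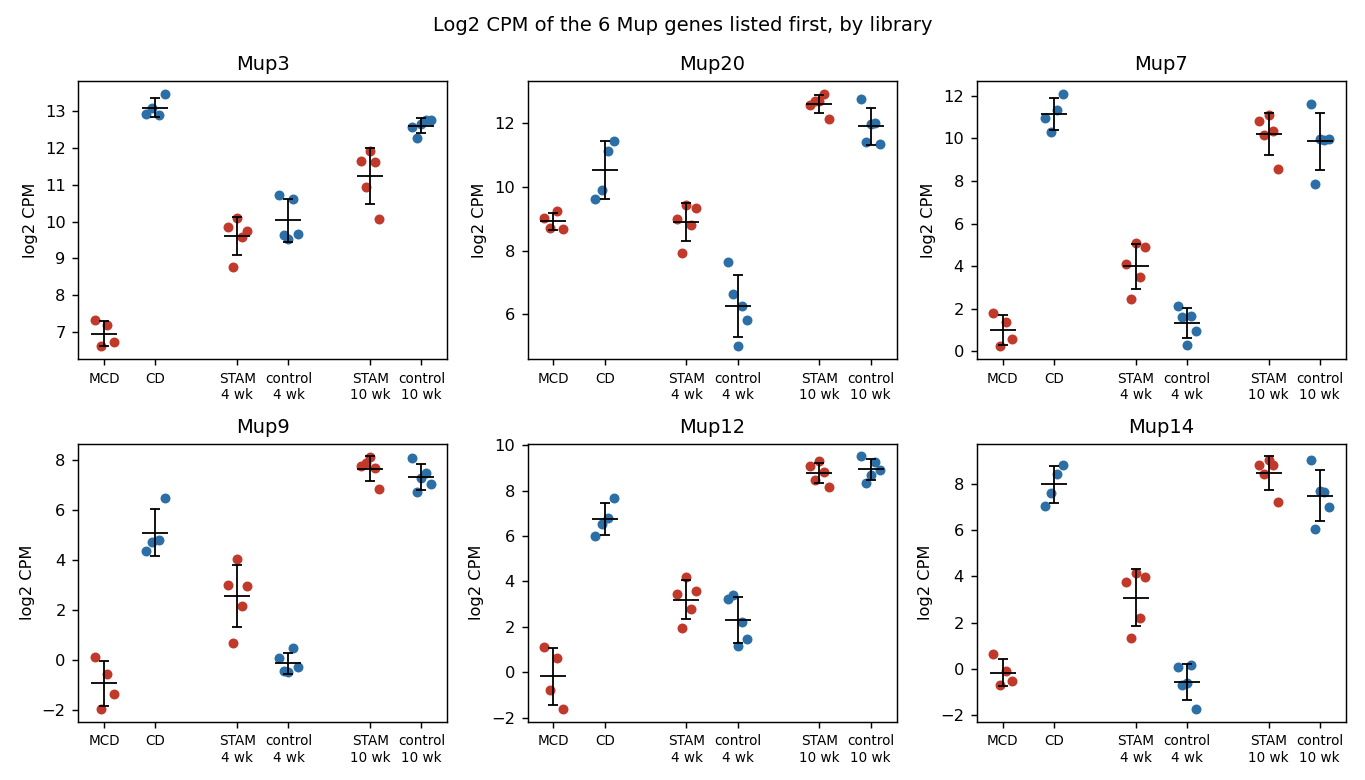
Log2 CPM of Mup3, Mup20, Mup7, Mup9, Mup12 and Mup14, 1 point per library, with mean and SD in black. Red points are MCD and STAM livers and blue points CD and control livers. Mup3 has the highest mean in each of the 3 control groups, and Mup20 of the 4-week STAM livers (7.93 to 9.42) lies above the 4-week controls (5.00 to 7.64). The 3 tables were scaled separately, so heights compare within each pair of groups.

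At 10 weeks the family sum did not separate STAM from control livers. It was 15416, 13486, 17558, 16039 and 8782 CPM in STAM livers, against 20909, 10534, 14988, 16029 and 13758 CPM in control livers. The means were 14256 ± 3391 CPM in STAM and 15244 ± 3780 CPM in control livers (SD, n = 5 each). The log2 difference was -0.10, and its sign turned to 0.19 when reads were scaled to the total of all reads, so no direction is given. Over the same comparison 7 of 8 hepatocyte markers fell and none rose, with a median log2 fold change of -0.69 (all genes tested, 0.05) and summed levels of 56650 to 74000 CPM in STAM and 97610 to 127200 CPM in control livers. All 5 recruited macrophage markers rose, with sums of 66.2 to 133 CPM in STAM and 30.6 to 50.01 CPM in control livers. Bile duct cell markers, 4 of 5 higher, summed to 73.3 to 350.4 CPM in STAM and 26.6 to 44.8 CPM in control livers. Among all genes tested, 22.5% were called lower and 25.3% higher. Stellate cell and fibroblast markers, 5 of 6 higher and 1 lower, summed to 318 to 589 CPM in STAM and 250.1 to 302 CPM in control livers. Endothelial cell markers had 2 of 5 higher and 1 lower, Kupffer cell markers 1 of 4 higher, and lymphocyte markers 0 of 6 called. The part of these in the Mup values was not tested.

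Of single genes, 2 of the 19 members tested rose (Mup6 and Mup20) and 2 fell (Mup3 and Mup11), against 25.3% of all genes tested called higher and 22.5% called lower. The members' share called was thus below that of genes at large in this comparison. Their median log2 fold change was 0.17, against 0.05 for all genes tested.

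Mup3 had 11.66, 10.94, 11.93, 11.62 and 10.06 log2 CPM in 10-week STAM livers, against 12.58, 12.27, 12.67, 12.76 and 12.76 log2 CPM in control livers. All 5 STAM livers were below all 5 controls, as held for 16.3% of all genes tested in that direction. The log2 fold change was -1.37 (SE 0.30, 95% CI -2.03 to -0.70, limma adjusted p = 0.00342). Mup3 was called lower in each of the other normalizations and filters run and without any 1 library.

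Mup6 (NM_001081285, 60003549 to 60006214, plus strand), rare in all groups, had 1.96, 2.69, 3.02, 1.99 and 0.59 log2 CPM in STAM livers, against -0.44, -1.01, -0.89, -1.20 and -0.69 log2 CPM in control livers. The log2 fold change was 2.90 (SE 0.38, limma adjusted p = 5.07e-05), on 516 reads in STAM and 53 reads in control libraries. The groups did not overlap, although Mup6 made up 0.0322% of the family's CPM in STAM livers and 0.00373% in control livers. Of the 50-base windows of its coding sequence, 0.204% were found in another member.

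Mup20 had 12.56, 12.69, 12.70, 12.93 and 12.14 log2 CPM in STAM livers, against 12.75, 11.42, 11.96, 12.01 and 11.34 log2 CPM in control livers. Control replicate 1 stood among the STAM livers. The log2 fold change was 0.71 (SE 0.24, 95% CI 0.18 to 1.23, limma adjusted p = 0.0288). The call was lost without a filter on low genes (adjusted p = 0.095) and in 5 of 10 fits that left out 1 library, with adjusted p = 0.0698 and 0.07 without control replicates 2 and 5 and 0.0588, 0.0575 and 0.0692 without STAM replicates 2, 3 and 4.

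Mup11, counted over 25 bases, had 11.2 CPM in STAM and 16.6 CPM in control livers (log2 fold change -0.61, SE 0.20, limma adjusted p = 0.0221), with overlapping groups. That call was lost with total-read scaling (-0.32, adjusted p = 0.131), without a filter (adjusted p = 0.0758) and without control replicate 1 (-0.53, adjusted p = 0.0515) or 4 (-0.56, adjusted p = 0.0509).

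Mup7, Mup9, Mup12 and Mup14, all of the near-identical group, overlapped between STAM and control livers at 10 weeks. The sum over the near-identical members overlapped too. It was 5178 ± 1386 CPM in STAM and 4814 ± 1813 CPM in control livers (SD, n = 5 each), a log2 difference of 0.14. Mup7 had 10.83, 10.17, 11.10, 10.33 and 8.56 log2 CPM in STAM livers, against 11.62, 7.87, 10.00, 9.91 and 9.97 log2 CPM in control livers (log2 fold change 0.33, SE 0.71, 95% CI -1.29 to 1.95). Mup14 had 8.83, 8.41, 9.05, 8.80 and 7.23 log2 CPM in STAM livers, against 9.05, 6.05, 7.68, 7.66 and 6.98 log2 CPM in control livers (0.98, SE 0.57). It was called higher without control replicate 1 (1.37, limma adjusted p = 0.0428) and not with it (adjusted p = 0.185).

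Mup9 had 7.79, 7.89, 8.13, 7.71 and 6.85 log2 CPM in STAM livers, against 8.08, 6.72, 7.30, 7.502 and 7.06 log2 CPM in control livers (0.34, SE 0.29). Mup12 had 9.07, 8.48, 9.31, 8.83 and 8.17 log2 CPM in STAM livers, against 9.50, 8.31, 8.68, 9.26 and 8.93 log2 CPM in control livers (-0.17, SE 0.26, with the sign turned at 0.12 under total-read scaling). STAM replicate 5 was the lowest STAM liver for all 6 listed members. Control replicate 1 was the highest control for Mup7, Mup9, Mup12, Mup14 and Mup20. With total-read scaling Mup1 and Mup13 were also called higher (0.54 and 0.46, limma adjusted p = 0.0299 and 0.00352), a scaling that moved the median of all genes tested to 0.33, and so they were with quantile normalization (0.53 and 0.50, adjusted p = 0.0316 and 0.00228). With the authors' scaling these 2 genes gave 0.24 and 0.17 (SE 0.20 and 0.13).

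The other members at 10 weeks, Mup4, Mup5, Mup8, Mup10, Mup15, Mup16, Mup17, Mup19 and Mup21, had log2 fold changes between -0.43 and 0.28, and none passed the test. Mup10 (-0.22, SE 0.11) was called lower without STAM replicate 1 (-0.29, limma adjusted p = 0.0326). Signs of several of these members turned with another scaling or without 1 library, so no direction is given for them.

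The shares of Mup20 and of Mup3 in the family each changed in 1 direction in both models, while that of the near-identical group did not. Mup20 made up 65.1 ± 7.74% of the family's CPM in MCD livers and 10.1 ± 4.07% in CD livers (SD, n = 4 each). At 4 weeks its share was 28.9 ± 2.30% in STAM and 6.36 ± 2.74% in control livers, and at 10 weeks 45.2 ± 6.21% in STAM and 26.0 ± 5.02% in control livers (SD, n = 5 each). Mup3 went the other way. Its share was 16.7 ± 1.40% in MCD and 56.9 ± 8.10% in CD livers, 47.4 ± 5.02% in STAM and 80.7 ± 9.06% in control livers at 4 weeks, and 17.9 ± 4.31% in STAM and 42.6 ± 8.04% in control livers at 10 weeks. In none of these 6 pairs of groups did the shares of Mup20 or Mup3 overlap. The closest pair was Mup20 at 10 weeks, at 37.9% in the lowest STAM and 33.0% in the highest control liver. The near-identical members together made up 15.6 ± 9.04% in MCD and 30.6 ± 4.16% in CD livers. Their share was 23.4 ± 5.73% in STAM and 12.7 ± 8.65% in control livers at 4 weeks. At 10 weeks it was 36.3 ± 3.26% in STAM and 30.9 ± 3.77% in control livers. These shares overlapped between the groups of each comparison. Scaling of a library cancels in such shares, and no test was made on them.

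**Figure D4:**
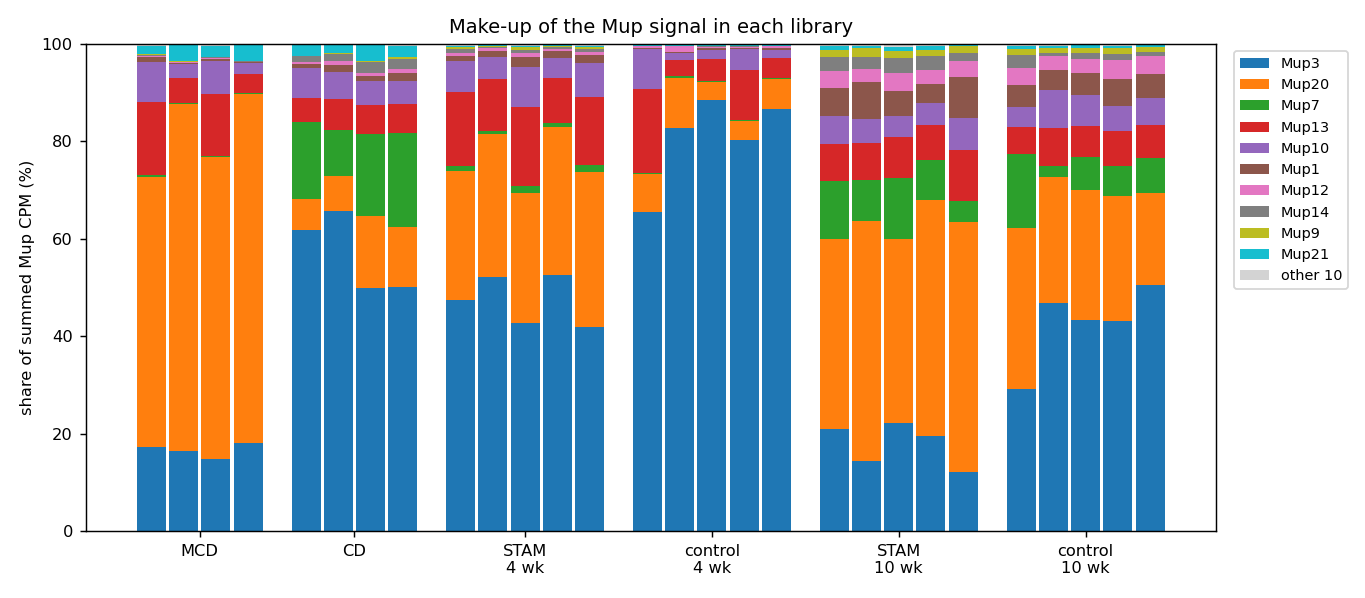
Share of the summed Mup CPM taken by each gene, 1 bar per library, in replicate order within each group. Mup20 (orange) is 55.5 to 71.5% in MCD livers and 6.28 to 14.8% in CD livers, and Mup3 (blue) is 12.2 to 22.2% in 10-week STAM livers and 29.3 to 50.5% in 10-week control livers.

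Per kilobase of counted length the order of the leading members was read over the 14 members with at least 400 bases. In MCD livers it was Mup20 (64.2 ± 7.96% of the family's CPM per kilobase) and then Mup3 (16.1 ± 1.38%), clear of each other, with Mup13 (8.16 ± 4.76%) and Mup10 (6.91 ± 4.11%) not distinguishable by their spread. In CD livers it was Mup3 (49.3 ± 8.45%), Mup7 (23.0 ± 5.79%) and Mup20 (8.91 ± 3.40%). In 10-week STAM livers Mup20 (41.2 ± 6.59%) led, with Mup3 (15.8 ± 3.51%) and Mup7 (13.9 ± 4.80%) within each other's spread. In 10-week control livers Mup3 (39.0 ± 8.29%) led Mup20 (24.2 ± 4.08%). At 4 weeks Mup3 led both groups, with 45.8 ± 5.26% in STAM and 79.9 ± 9.43% in control livers.

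The effect of STAM on the family was smaller at 10 than at 4 weeks for some members. The difference of the effects (10 weeks minus 4 weeks) passed the test for 5 of 18 members, all lower, against 11.2% of all 15022 genes tested called lower and 8.89% called higher. These were Mup14 (-2.68, SE 0.86, limma adjusted p = 0.0369), Mup17 (-2.57, SE 0.69, adjusted p = 0.0124), Mup9 (-2.38, SE 0.65, adjusted p = 0.0163), Mup1 (-2.26, SE 0.52, adjusted p = 0.00587) and Mup20 (-1.92, SE 0.56, adjusted p = 0.0237). Mup7 (-2.33, SE 0.92) did not pass at adjusted p = 0.0829, and Mup3 (-0.94, SE 0.47) did not at adjusted p = 0.169. Without 4-week STAM replicate 2, 8 members passed, with Mup7 (adjusted p = 0.0454), Mup8 (0.0379) and Mup16 (0.0252) added. Mup14 lost its call without a filter (adjusted p = 0.0547) and in 11 of 20 fits that left out 1 library, at adjusted p = 0.054 to 0.068. Those were the fits without 10-week STAM replicate 2 or 5, 10-week control replicate 1, 3 or 4, 4-week STAM replicate 1, 3 or 5, or 4-week control replicate 2, 3 or 5. Mup7 also passed without 10-week control replicate 2 (-2.84, adjusted p = 0.0254), and Mup10 without 4-week control replicate 1 (-2.31, adjusted p = 0.0253). Mup17 lost its call with a prior of 2 reads (-0.79, adjusted p = 0.14). It had passed the 4-week filter only through STAM livers.

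The control levels of the members differed between the ages. Mup7 averaged 9.87 ± 1.33 log2 CPM in the 10-week and 1.34 ± 0.72 log2 CPM in the 4-week control livers (SD, n = 5 each). Mup3 averaged 12.61 ± 0.20 log2 CPM in the 10-week and 10.04 ± 0.58 log2 CPM in the 4-week control livers. Mup4 and Mup5 had 48 and 57 reads over the 10-week control livers and 0 reads over the 4-week control livers. Mup5 also had 0 reads in the 4-week STAM livers, where Mup4 had 8. The ages are in separately scaled tables, and age was not tested.

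The MCD effect was lower than the 10-week STAM effect for every one of the 19 members tested in both tables, against 15% of all 14986 genes tested called lower. Mup4, Mup5 and Mup17 passed the filter of the diet comparison only through CD livers. The difference was -10.49 (SE 0.94) for Mup7, -9.12 (SE 0.78) for Mup14 and -4.77 (SE 0.40) for Mup3. It was smallest for Mup20, at -2.32 (SE 0.49, limma adjusted p = 0.00203). Mup6, which had not passed in MCD and had risen in STAM, gave -4.59 (SE 0.78, adjusted p = 0.000205). The 2 tables share no libraries.

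Genes outside the family with the same male bias were set beside it. Of 19 male-biased liver genes, all 19 fell in MCD livers (20.1% of all genes tested were called lower), with a median log2 fold change of -3.41. The largest losses were in Moxd1 (-6.61, SE 1.46), the fatty acid elongase Elovl3 (-6.49, SE 0.44), the organic anion carrier Slco1a1 (-6.47, SE 0.60) and the steroid enzyme Hsd3b5 (-6.08, SE 0.71). Of 25 female-biased genes 20 rose and 1 fell in MCD livers (22.6% of all genes tested were called higher), with a median of 3.87. The cytochrome P450 genes Cyp3a41a (9.51, SE 0.97), Cyp3a44 (9.17, SE 0.43), Cyp2b13 (8.87, SE 0.76) and Cyp2b9 (8.24, SE 0.53) rose most. These cytochromes, like the Mup genes, have close copies among which reads may have been split.

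In 4-week STAM livers 5 of 18 male-biased genes rose and none fell, among them Cyp4a12b (3.48, SE 0.52), Cyp4a12a (2.82, SE 0.55), Susd4 (2.70, SE 0.32) and the complement gene C6 (2.13, SE 0.26). Their median was 0.42, and that of the 25 female-biased genes was -0.53, with 4 higher and 6 lower. Of all genes tested at this age, 6.52% were called higher and 3.27% lower. In 10-week STAM livers 8 of 19 male-biased genes fell and 1 rose, with a median of -0.69, against 22.5% of all genes tested called lower and 25.3% called higher. Hsd3b5 fell by 5.87 on the log2 scale (SE 0.96) and Slco1a1 fell by 2.32 (SE 0.46). Of 25 female-biased genes 4 were higher and 5 lower, no larger a share than among all genes tested.

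**Figure D5:**
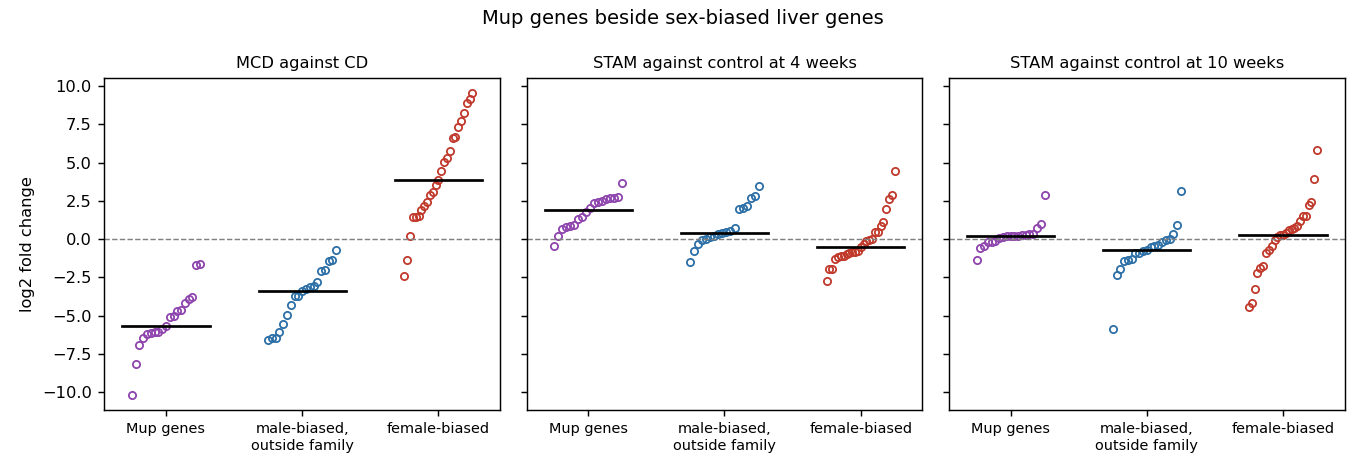
Log2 fold change of each tested gene (MCD over CD, or STAM over control), sorted by value within each list, with list medians as black lines: Mup genes, male-biased genes outside the family and female-biased genes. In the diet table the medians are -5.70, -3.41 and 3.87, at 4 weeks 1.90, 0.42 and -0.53, and at 10 weeks 0.17, -0.69 and 0.27.

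Growth hormone signalling genes were called about as often as genes at large in MCD livers, where 5 of 14 fell and 1 rose, against 20.1% of all genes tested called lower and 22.6% called higher. Ghr, the growth hormone receptor, averaged 7.89 ± 0.32 log2 CPM in MCD and 9.84 ± 0.20 log2 CPM in CD livers (SD, n = 4 each, log2 fold change -1.95, SE 0.15, limma adjusted p = 1.39e-06). Cish, a feedback inhibitor induced by the receptor, fell by 2.33 (SE 0.31), Igf1, the growth factor that the liver makes under growth hormone, by 1.40 (SE 0.21), and Stat5b by 0.74 (SE 0.17). In 4-week STAM livers, where Mup20 and some near-identical members were higher, 5 of 14 fell and none rose, against 3.27% of all genes tested called lower. Socs2, another inhibitor induced by STAT5, averaged 3.99 ± 0.56 log2 CPM in STAM and 6.58 ± 0.50 log2 CPM in control livers (SD, n = 5 each, -2.59, SE 0.31), and Cish fell by 1.73 (SE 0.36). At 10 weeks Socs2 was higher in STAM livers (0.90, SE 0.21) and Ghr lower (-0.70, SE 0.14), with 3 of 14 higher and 4 lower, a share near that of all genes tested (25.3% higher and 22.5% lower).

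Of 19 transcription factors and hormone receptors tied to Mup or sex-biased transcription, 13 fell and 1 rose in MCD livers, 3 fell and 2 rose in 4-week STAM livers, and 11 fell and 2 rose in 10-week STAM livers. Of all genes tested, 20.1%, 3.27% and 22.5% were called lower and 22.6%, 6.52% and 25.3% higher in these comparisons, in that order. Bcl6, a repressor that maintains male-biased expression by silencing female-biased genes, fell by 1.91 in MCD (SE 0.48) and by 1.96 in 10-week STAM livers (SE 0.23), and gave 0.70 (SE 0.42) in 4-week STAM livers without passing the test. Nr3c1, the glucocorticoid receptor, fell in all 3 comparisons, by 0.75 in MCD, 0.40 in 4-week STAM and 0.51 in 10-week STAM livers (SE 0.12, 0.07 and 0.07). Zhx2, a regulator of Mup levels that differs between mouse strains, fell by 0.61 in MCD (SE 0.12) and by 0.36 in 10-week STAM livers (SE 0.07). In 10-week STAM livers Ghr, Bcl6 and Zhx2 were lower. At that age Mup3 was lower too (-1.37, SE 0.30), and the summed Mup level of STAM and control livers overlapped. The part of these regulators in Mup levels was not tested.

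Other lipocalins and other secreted liver proteins give the scale of change in genes with a like product. Of 13 lipocalins tested in the diet table, 2 rose and 6 fell. Among 14 tested in each STAM table, 5 rose and 1 fell at 4 weeks, and 3 rose and 4 fell at 10 weeks. Lcn2, an iron-carrier-binding protein of the acute phase, rose in MCD (3.07, SE 0.23) and in 4-week STAM livers (3.20, SE 0.14). Of 20 other secreted hepatocyte proteins, 15 fell and 1 rose in MCD livers, with a median of -0.95, and 17 fell and none rose in 10-week STAM livers, with a median of -0.73. Serpina3k, a serine protease inhibitor, fell by 3.72 in MCD (SE 0.22), and albumin (Alb) fell by 0.96 in 10-week STAM livers (SE 0.18). The 4-week STAM livers had 5 of 20 lower and 2 higher. Of all genes tested, 20.1% were called lower in MCD, 3.27% in 4-week STAM and 22.5% in 10-week STAM livers. The shares called higher were 22.6%, 6.52% and 25.3%, in that order.

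No other tested gene lay inside the cluster. Of the 5 nearest tested genes on each side, Ptbp3, Hsdl2, Inip, Snx30, Slc31a2 and Fkbp15 passed the test in no comparison. In MCD livers, where the Mup genes between them fell, E130308A19Rik fell by 0.63 and Slc31a1, a copper transporter, by 0.84, while Zfp37 was higher by 1.62 (SE 0.33, limma adjusted p = 0.0017). Zfp37 was also higher in STAM livers, by 1.30 at 4 weeks and 1.58 at 10 weeks. At 10 weeks Slc31a1 fell by 0.55 and Cdc26 by 0.29.

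The promoters of the members were compared as a description of the family, since near-identical members and most others fell in MCD livers. A tie between promoter likeness and this fall was not tested. RefSeq promoter windows on GRCm38.p6 (250 bases before to 50 after each annotated start) were found for 13 of the 20 members. Between near-identical members they were 89.9 to 99.0% identical over 36 pairs, and between a near-identical and another member 73.7 to 89.7% over 36 pairs. The Mup2 window (60139807 to 60140106) lies at the start of the deposited Mup15 gene, and the Mup15 window (61439655 to 61439954) at that of the deposited Mup2 gene. For these symbols the promoter and the reads thus belong to different loci. The motif TATATAA, searched on both strands, was present in 12 of the 13 windows, all but that of Mup7, and in 3.24% of 32851 mouse promoters. Where present, the motif began between -31 bases (as in Mup9) and 12 bases (Mup14) from the annotated start. The Mup7 window ended inside the stretch that precedes the motif in Mup9, so it cannot show whether Mup7 has this motif. The 77 bases that end with this motif, in capitals, are shown for 1 near-identical member and 3 others to show the shared start of these genes. They lie at chr4:60421977-60422053 (minus strand, Mup9), chr4:60003382-60003458 (plus, Mup6), chr4:62087322-62087398 (minus, Mup3) and chr4:62150843-62150919 (minus, Mup21).
Mup9: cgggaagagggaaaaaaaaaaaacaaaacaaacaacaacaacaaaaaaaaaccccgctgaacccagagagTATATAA
Mup6: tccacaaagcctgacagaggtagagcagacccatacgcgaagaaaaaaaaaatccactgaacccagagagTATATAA
Mup3: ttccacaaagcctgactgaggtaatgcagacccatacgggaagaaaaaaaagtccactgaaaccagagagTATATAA
Mup21: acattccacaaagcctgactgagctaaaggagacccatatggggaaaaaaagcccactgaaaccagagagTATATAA
The motif TTCNNNGAA, the core bound by STAT5, searched on both strands, was found in 0 of the 13 windows and in 8.3% of all promoters. This says only that these letters are not in these windows.

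Members varied together from liver to liver. After subtraction of the mean of its own group, Mup14 and Mup7 had a Pearson r of 0.89 over the 28 libraries, Mup14 and Mup9 of 0.85, and Mup20 and Mup3, the least alike of the 6 listed members, of 0.58. These are descriptions over libraries that share their scaling, and reads split between near-identical members also tie them. Among 14830 genes outside the family, those whose deviations from the own group mean were most like the log2 family sum were Serpina3k (r = 0.84, Spearman rho 0.83), Stradb (0.83, 0.84), Slco1a1 (0.83, 0.85), C8b (0.80, 0.89) and Zkscan3 (0.80, 0.82). Without the 2 libraries farthest from the median these r values were 0.85, 0.74, 0.82, 0.86 and 0.77. With values set against the control mean of each table, Lrit2 (0.98), Lrit1 (0.97), Scp2 (0.97), Kynu (0.96) and Phyh (0.96) were most alike, over libraries of which the 4 MCD ones stood apart in the family sum.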

How the data were processed

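Paired-end reads of polyadenylated RNA from 28 liver libraries in 6 groups had been prepared with a stranded kit, per the labels' protocols, and aligned with STAR 2.4.2a to mm10, per the submitters' processing notes. No counting tool is named in the labels. The authors deposited log2 CPM values per gene in 3 tables, each scaled on its own. The deposited values equal log2 of whole reads plus a prior averaging 0.25 reads over an effective library size, and 100% of the recovered reads were whole within 0.05. Linear CPM are those reads over the same size, without the prior. The tables also hold the authors' own log2 fold changes and p-values, in which, by the authors' deposited table, 19, 6 and 4 members had an adjusted p below 0.05 in the diet, 4-week and 10-week comparisons. At 4 weeks the authors' deposited table includes Mup8 (adjusted p = 0.00386) and not Mup17 (0.0986), unlike the test used here.

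Within each table limma 3.58.1 (R 4.3.3) was fitted to the log2 CPM of genes above the 25th percentile of mean log2 CPM, with a trended, robust empirical Bayes step, and p-values were adjusted by Benjamini-Hochberg over all genes tested; differences between effects used 1 fit over both tables. On data simulated with the same dispersion for every gene, the fit recovered 53 to 64% of genes changed by 1 on the log2 scale and 91 to 96% of those changed by 3. A wider spread, as several Mup genes had between libraries, was not simulated, so these rates need not hold for them. Sums and shares were computed from linear CPM without a test. Depth of 16.2 to 25.9 M reads puts the floor of 3 reads at 0.2 CPM or less. No 2 libraries of a group agreed within counting noise.

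The members, gene lists and rules were chosen with earlier results of these data known. Every member is accounted for; from each list at most 4 called genes a comparison are named, by largest change with groups that do not overlap, along with 8 regulators whatever they show (1 of them is not reported here), the 5 genes most like the family and the 5 nearest genes on each side. Mup18 and Mup22 were not analysed here. Deposited coordinates were raised by 1 at the start to count from 1. Cyp3a, Cyp2b and Mup reads may be split among close copies. Alternatives were other filters, a prior of 2 reads, total-read scaling, quantile normalization, voom, a replicate block and leaving out each library.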

Additional observations from a re-analysis of the deposited data

Results flagged for a closer look

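Among 118 sets of values of a member in a group of 4 or 5 libraries, 13 had 1 library far from the others by Dixon's criterion, which chance flags in about 1 of 20 groups. That rate does not hold where all other libraries had 0 reads, since any library with a read is then flagged. This was so for Mup4, Mup5, Mup17 and Mup19 in MCD and for Mup17 and Mup19 in 4-week control livers. In MCD livers, replicate 4 was the highest for Mup4 (-3.24 log2 CPM, the others at 0 reads), and replicate 1 was the highest for Mup5 (-4.30), Mup17 (-4.30) and Mup19 (-2.02). In CD livers, replicate 4 was the highest for Mup5 (1.93 log2 CPM), Mup8 (5.51), Mup10 (10.09), Mup11 (4.10) and Mup19 (1.35). Among 4-week STAM livers, replicate 2 had the lowest Mup6 (-6.25 log2 CPM, which is 0 reads). Among 4-week control livers, replicate 2 had the highest Mup17 (-3.78 log2 CPM) and replicate 1 the highest Mup19 (-3.69). Among 10-week STAM livers, replicate 5 had the lowest Mup16 (-0.28 log2 CPM, against 0.98 to 1.36 in the others).

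The STAM effect differed between the ages in a test of the difference (10 weeks minus 4 weeks, log2 scale) for Mup1 (-2.26), Mup9 (-2.38), Mup14 (-2.68), Mup17 (-2.57) and Mup20 (-1.92). The MCD effect differed from the 10-week STAM effect (MCD minus STAM) for all 19 members tested in both tables. The differences were -6.15 for Mup1, -4.77 for Mup3, -6.44 for Mup4, -5.99 for Mup5, -4.59 for Mup6, -10.49 for Mup7, -4.72 for Mup8, -6.40 for Mup9, -4.47 for Mup10 and -3.18 for Mup11. They were -6.74 for Mup12, -4.08 for Mup13, -9.12 for Mup14, -5.36 for Mup15, -6.00 for Mup16, -5.18 for Mup17, -5.87 for Mup19, -2.32 for Mup20 and -4.36 for Mup21.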

How the results depend on the processing

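The count of members called in MCD livers was 11 with a filter at the median of all genes, and 17 to 19 without 1 library. At 4 weeks it was 3 with that filter, 3 with voom and 5 to 8 without 1 library, and at 10 weeks 2 without a filter and 3 to 5 without 1 library. The 10-week minus 4-week difference was called for 4 to 8 members without 1 library. The stricter filter tests fewer members; the cause of the other changes was not tested. Total-read scaling moved the median log2 fold change of all genes to 0.49 in MCD, 0.09 in 4-week and 0.33 in 10-week STAM livers, and the share of higher genes among those called to 86.1%, 83.7% and 88.0%, against 52.9%, 66.6% and 53.0%. The log2 ratio of the family sum, MCD over CD, was then -3.95, against -4.38 with the authors' scaling. With the authors' scaling the near-identical members alone, a choice made after seeing the data, gave a log2 ratio of -5.55 for MCD over CD. For 4-week STAM over control livers that ratio was 1.42.

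At 10 weeks the sign turned with quantile normalization for Mup4 (-0.69), Mup10 (0.10), Mup12 (0.10), Mup15 (-0.40), Mup17 (-0.74) and Mup19 (-0.59), and with total-read scaling for Mup5 (0.18), Mup10 (0.0724) and Mup12 (0.12). Without 1 library the 10-week log2 fold change ranged over -0.43 to 0.15 for Mup5, -0.17 to 0.76 for Mup7, -0.16 to 0.42 for Mup8, -0.15 to 0.57 for Mup15, -0.0329 to 0.34 for Mup17, -0.0275 to 0.42 for Mup19 and -0.0534 to 0.70 for Mup21. It ranged over -0.11 to 0.66 for Mup11 at 4 weeks, and the age difference over -0.47 to 0.85 for Mup6 and -0.73 to 0.0238 for Mup21. None of these members was called in those comparisons, and the cause was not tested.

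Replicate numbers are shared between groups, but same-numbered libraries did not deviate together (correlations of deviations -0.12 to 0.01), so the numbers do not pair the samples. With the replicate number as a block, 18 members were called in MCD, 4 at 4 weeks (Mup1, Mup8, Mup9 and Mup14), 4 at 10 weeks, 3 in the age difference (Mup1, Mup9 and Mup17) and 19 in the difference of models. Members with few reads, and single genes among near-identical copies, are limited most by depth and by how reads were shared.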
